A study of Mus musculus with 4 samples.

Results

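The regional identity factors described here are 9 transcription factors by which the gut tells its segments apart, Cdx1, Cdx2, Gata4, Hoxa11, Hoxa13, Hoxb13, Hoxd11, Hoxd12 and Hoxd13, out of 22368 genes measured. They were chosen by name, as every probe other than a control whose gene name in the array files is one of the 9, which gave 11 probes on 20 spots out of 39423 probes. The data were 4 one-color arrays of the whole mouse genome, each hybridized with RNA pooled from the colons of male mice, 42 weeks old, of strain B6.129 (n3). The pools were Pla2g3+/+ with saline vehicle, Pla2g3-/- with vehicle, Pla2g3+/+ after AOM (azoxymethane, which causes tumors of the colon), and Pla2g3-/- after AOM. The dose of AOM was 10 mg/kg, repeated weekly over 6 weeks, and the tissue was taken 28 weeks after the last injection. The deposited design gives 3 to 5 mice per pool and calls the AOM tissue cancerous, the labels name the tissue only as colon, and the study's legend names the whole descending colon. Every group was 1 pool on 1 array, so no replicate check exists and a ratio between arrays carries no p-value. The question was whether the pools differ in the gut segment that their regional factors mark.

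The caudal homeobox factors Cdx1 and Cdx2 are expressed along the intestinal epithelium from the duodenum to the rectum and keep it intestinal. Gata4, a zinc-finger factor, is expressed in the proximal small intestine and is normally off in the colon. The Hox genes lie in clusters in the order in which they are used along the body, with paralogue groups of low number anterior and those of high number posterior, so Hoxa13, Hoxb13 and Hoxd13 mark the hindgut.

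The promoters of the HoxD genes and of Cdx2 are shown because those genes gave the largest AOM ratios in opposite directions. Each window runs 5′ to 3′ on the strand of its gene and comes from RefSeq on GRCm38.p6, where 6 of the 9 factors had at least 1 window. The 3 motifs searched on both strands were TTTATG (a caudal-type core), TTTACG (a core of the group 13 Hox type) and AGATAA (the GATA core). Capitals mark each match, and the motifs share no position here. Hoxd11 has 2 annotated starts, chr2:74679308-74679607 and chr2:74682073-74682372, followed by Hoxd12 at chr2:74674763-74675062, Hoxd13 at chr2:74667975-74668274 and Cdx2 on the minus strand at chr5:147307200-147307499.
Hoxd11, first start: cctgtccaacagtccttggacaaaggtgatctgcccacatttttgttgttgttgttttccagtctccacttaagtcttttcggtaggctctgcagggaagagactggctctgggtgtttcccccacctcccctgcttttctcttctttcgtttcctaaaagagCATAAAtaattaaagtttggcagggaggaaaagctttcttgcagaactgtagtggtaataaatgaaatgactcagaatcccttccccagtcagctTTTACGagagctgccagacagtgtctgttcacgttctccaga
Hoxd11, second start: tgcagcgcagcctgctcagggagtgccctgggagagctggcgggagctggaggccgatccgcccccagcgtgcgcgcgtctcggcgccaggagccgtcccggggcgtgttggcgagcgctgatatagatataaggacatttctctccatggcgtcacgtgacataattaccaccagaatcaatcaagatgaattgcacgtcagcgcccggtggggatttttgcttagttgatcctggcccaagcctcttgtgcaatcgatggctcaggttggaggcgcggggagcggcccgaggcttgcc
Hoxd12: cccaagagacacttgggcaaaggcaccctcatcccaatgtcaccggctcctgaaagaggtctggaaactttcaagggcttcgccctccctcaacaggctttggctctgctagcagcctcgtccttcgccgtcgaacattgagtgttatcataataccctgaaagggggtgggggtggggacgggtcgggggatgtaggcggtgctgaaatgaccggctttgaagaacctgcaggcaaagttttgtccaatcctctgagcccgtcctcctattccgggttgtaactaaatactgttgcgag
Hoxd13: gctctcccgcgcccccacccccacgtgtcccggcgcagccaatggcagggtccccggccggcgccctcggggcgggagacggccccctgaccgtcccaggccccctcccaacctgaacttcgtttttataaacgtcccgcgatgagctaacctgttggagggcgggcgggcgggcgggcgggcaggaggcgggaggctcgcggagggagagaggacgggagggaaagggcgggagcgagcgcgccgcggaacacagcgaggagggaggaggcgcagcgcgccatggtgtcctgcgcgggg
Cdx2: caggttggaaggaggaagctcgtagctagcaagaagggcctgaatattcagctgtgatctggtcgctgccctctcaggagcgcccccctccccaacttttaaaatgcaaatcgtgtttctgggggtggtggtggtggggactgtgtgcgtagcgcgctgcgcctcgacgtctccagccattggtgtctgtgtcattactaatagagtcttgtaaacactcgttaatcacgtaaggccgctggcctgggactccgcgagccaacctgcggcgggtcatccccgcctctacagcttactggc
The first start of Hoxd11 held both matches found, a TTTATG read on the opposite strand from position 164 of its window and a TTTACG from position 259. The windows of Hoxd12, Hoxd13 and Cdx2, and those of Hoxa11 and Hoxa13, held none of the 3. Of 32851 windows in the RefSeq table, TTTATG lay in 11.9%, TTTACG in 3.03% and AGATAA in 11.2%. A match is a description of letters and not a binding site.

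Signal is given relative to the 75th percentile of its own array, on a linear scale, and a probe counts as detected where the scanner software called it well above background. Levels of different genes come from different probes and are not comparable. Between 64.8% and 69.4% of the spots other than controls were well above background on each array, and none was saturated. All 7 genes of a colonocyte marker list, among them Car1 and Aqp8, were well above background on all 4 arrays, as the label colon says. Pla2g3 itself went against the genotype labels. Its brightest probe read 0.531 in Pla2g3+/+ and 0.656 in Pla2g3-/- with vehicle, and 0.232 and 1.40 after AOM. Another probe gave the same order within each treatment, and the last of the 3 was well above background on every array but that of Pla2g3+/+ with vehicle. Whether the probes lie outside the deleted part is not given in the sources used here, so genotypes below are those of the labels. Had the genotype labels been exchanged, each ratio between genotypes would turn its sign, which was not tested.

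With vehicle, the factors differed by less than 2-fold between the pools labeled Pla2g3+/+ and Pla2g3-/-, and 4 of them lay toward the ends of the narrow range of all genes. None of the 8 factors with a value lay past 2-fold, against 3.24% of all genes tested (531 of 16391), 1.92% higher and 1.32% lower, a share at which a count of 0 says nothing particular of the factors. The median log2 ratio of the factors, Pla2g3-/- over Pla2g3+/+, was -0.17, beside -0.02 for all genes. The widest ratio was that of Hoxd13, which read 1.5 in Pla2g3+/+ and 1.01 in Pla2g3-/-, a log2 ratio of -0.56. Hoxd11 (-0.37) and Hoxd12 (-0.41) were lower in Pla2g3-/- as well, while Cdx2 was higher (0.44). Of all genes tested, 3.84% had a lower ratio than Hoxd13, 7.18% than Hoxd12 and 8.59% than Hoxd11, and 6.20% had a higher ratio than Cdx2. These log2 ratios were beyond the 95th percentile of the SD of replicate spots, which was at most 0.259. That SD covers the error between spots of 1 array, whereas a ratio holds the error of 2 arrays, and it leaves out that between mice or pools. With normexp background correction the signs of Cdx2 (-0.09), Hoxd11 (0.31) and Hoxd12 (0.83) turned.

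After AOM the profiles came apart. Cdx2 was lower than with vehicle in both genotypes and Cdx1 in Pla2g3+/+, the 5′ genes of the HoxD cluster were higher in both genotypes, and the HoxA factors stayed close to 2-fold or within it. In Pla2g3+/+, 3 of 8 factors were over 2-fold higher after AOM and 2 over 2-fold lower, against 37.5% of all genes past 2-fold (15.1% higher and 22.4% lower). In Pla2g3-/- the counts were also 3 higher and 2 lower of 8, against 24.8% of all genes (9.65% higher and 15.1% lower). The 2 comparisons have no array in common. The factors that passed in both were Hoxd11, Hoxd12, Hoxd13 and Cdx2, joined by Cdx1 in Pla2g3+/+ and by Hoxa11 in Pla2g3-/-. Without any scaling between arrays the median log2 ratio of all genes was 0.87 in Pla2g3+/+ and 0.76 in Pla2g3-/-, since the AOM arrays were brighter, so the changes are given relative to the array percentile.

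**Figure D1:**
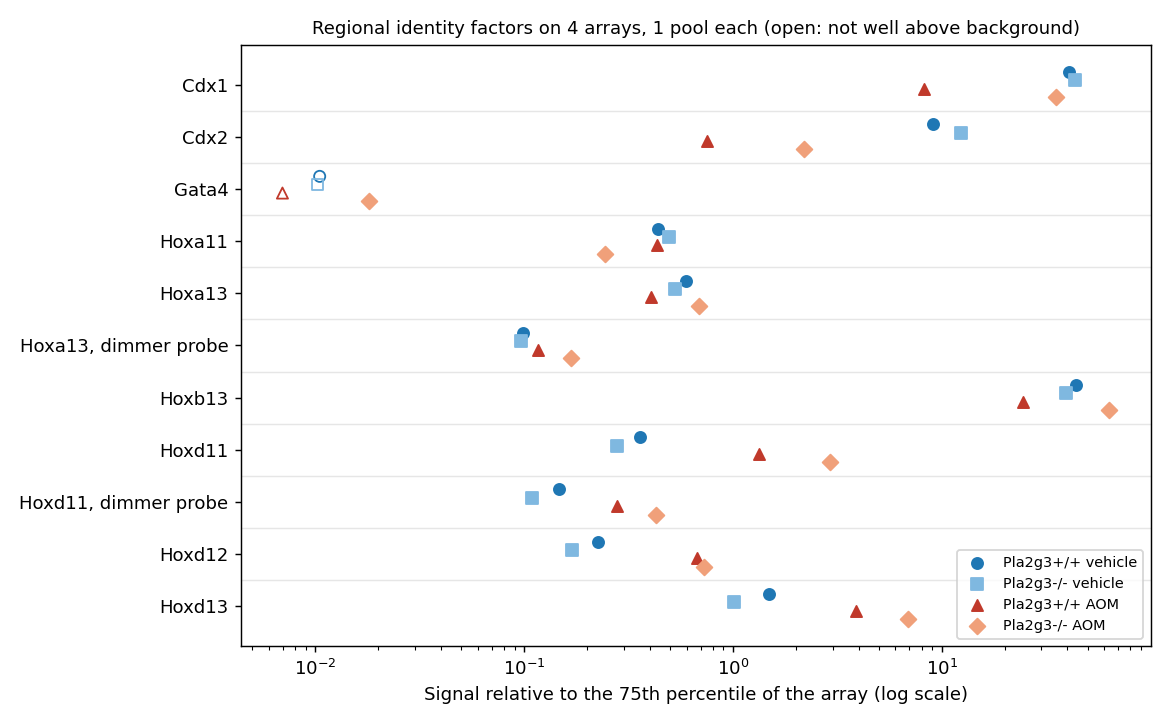
Signal of each probe of the 9 factors relative to the 75th percentile of its array, on a log axis, with 1 point for each of the 4 pools and open symbols where the probe was not well above background. Both AOM points of Hoxd11, Hoxd12 and Hoxd13 lie to the right of both vehicle points, and those of Cdx2 lie to the left.

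Cdx1 has 1 probe, at chr18:61178558-61178617 on mm9, the build of the array files. It read 40.5 in Pla2g3+/+ and 43.5 in Pla2g3-/- with vehicle, and 8.21 and 35.1 after AOM. The pool of Pla2g3+/+ after AOM stood alone at the low end, 4.93-fold below its vehicle pool (log2 ratio -2.30) and 4.27-fold below Pla2g3-/- after AOM. The other pools followed in the order Pla2g3-/- vehicle, Pla2g3+/+ vehicle and Pla2g3-/- after AOM, with steps of 0.10 and 0.21 on the log2 scale, each less than the largest 95th percentile of the SD of replicate spots (0.259). In Pla2g3-/- the log2 ratio of AOM to vehicle was -0.31, and its sign turned with quantile normalization (0.27), both normexp settings (0.36 and 0.31) and no scaling (0.53).

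Cdx2, which is needed to keep the colonic epithelium from turning to a gastric type, has 1 probe at chr5:148112547-148112606 on mm9. It read 9.07 in Pla2g3+/+ and 12.3 in Pla2g3-/- with vehicle, and 0.751 and 2.20 after AOM. Both AOM pools were thus below both vehicle pools. The ratio of AOM to vehicle was 12.1-fold down in Pla2g3+/+ (log2 ratio -3.59), where 1.94% of all genes tested were lower still, and 5.61-fold down in Pla2g3-/- (-2.49), where 1.97% were lower. Between genotypes after AOM, Cdx2 was 2.93-fold higher in Pla2g3-/-. Over 12 settings the AOM log2 ratio of Cdx2 ran from -3.59 to -2.57 in Pla2g3+/+ and from -2.50 to -1.64 in Pla2g3-/-. The probe rules, the filters and the deposited table among these settings repeat the reported value of Cdx2 by construction.

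Gata4 was not well above background in 3 of the 4 pools. Its probe, at chr14:63817858-63817917 on mm9, read 0.0105 and 0.0102 with vehicle and 0.00696 in Pla2g3+/+ after AOM, where the intensity was 9.11. In Pla2g3-/- after AOM it was well above background at 0.018, an intensity of 21.1. That allows a bound of at least 1.43-fold higher than Pla2g3+/+ after AOM, which is under 2-fold, and no value in the other comparisons. Its paralogue Gata6, which is expressed along the whole intestine, was measured in every pool, at 1.5, 1.24, 1.61 and 2.48 in the order Pla2g3+/+ vehicle, Pla2g3-/- vehicle, Pla2g3+/+ AOM and Pla2g3-/- AOM.

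Hoxa11, best known from the limb, kidney and uterus, has 1 probe spotted 10 times on each array, at chr6:52192107-52192166 on mm9, and is the one factor with an error between spots. It read 0.436 with an SD of 0.0461 on the log2 scale in Pla2g3+/+ and 0.494 with an SD of 0.0484 in Pla2g3-/- with vehicle. After AOM it read 0.433 (SD 0.0727) and 0.245 (SD 0.0691). After scaling, the 10 spots of Pla2g3-/- after AOM, between 0.233 and 0.272, did not overlap those of any other array. Those of Pla2g3+/+ with vehicle (0.407 to 0.454) and after AOM (0.404 to 0.464) overlapped. Before scaling, Pla2g3-/- after AOM (272 to 318) overlapped Pla2g3+/+ with vehicle (263 to 293) and Pla2g3-/- with vehicle (304 to 341). Pla2g3+/+ after AOM (529 to 607) then lay apart. Spots of 1 array are not replicates of a pool. The log2 ratio of AOM to vehicle in Pla2g3-/- was -1.01, just past 2-fold, and was -0.76 after normexp with quantile normalization and -0.17 without scaling. In Pla2g3+/+ it was -0.0079, and without scaling 1.01. Its antisense transcript Hoxa11os read 13.4, 14.6, 7.95 and 20.0 in the same order, so the 2 strands of this locus did not share an order across the pools.

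Hoxa13 acts in the hindgut and the genital tubercle. It has 2 probes 124 bases apart on the genome and along the transcript, the brighter at chr6:52208980-52209039 and the dimmer at chr6:52208856-52208915 on mm9. The brighter read 0.594 and 0.527 with vehicle and 0.407 and 0.685 after AOM, for Pla2g3+/+ and Pla2g3-/- in turn. The dimmer read 0.0984, 0.0966, 0.117 and 0.168. The probes gave opposite signs for AOM over vehicle in Pla2g3+/+, with log2 ratios of -0.55 and 0.24, so no direction is given there. Both placed Pla2g3-/- after AOM highest, and no Hoxa13 ratio passed 2-fold with either probe, though AOM over vehicle in Pla2g3-/- did without scaling (1.23).

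Hoxb13, a marker of the distal colon and rectum that is also expressed in the prostate, has 1 probe at chr11:96057854-96057913 on mm9. It read 44.0 in Pla2g3+/+ and 39.2 in Pla2g3-/- with vehicle, and 24.4 and 63.3 after AOM. The vehicle pools lay together and the AOM pools lay on either side of them. After AOM it was 2.60-fold higher in Pla2g3-/- than in Pla2g3+/+ (log2 ratio 1.38), while neither ratio of AOM to vehicle passed 2-fold (-0.85 and 0.69), the first turning to 0.17 without scaling. The second of these passed 2-fold with quantile normalization (1.43), both normexp settings (1.36 and 1.33) and no scaling (1.54). Of 10 genes made by the prostate and seminal vesicle, none was well above background in Pla2g3-/- with vehicle, 1 in each Pla2g3+/+ pool and 3 in Pla2g3-/- after AOM. Their summed signal lay between 0 and 1.16. It was highest in Pla2g3+/+ after AOM, all of it from Tgm4, and was 0.106 in Pla2g3-/- after AOM. Of these genes 7, Pbsn and Msmb included, were not well above background on any array. Their part in the Hoxb13 signal was not tested.

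The 3 HoxD factors shared an order, though the AOM pools were not apart for Hoxd12, Pla2g3-/- after AOM, Pla2g3+/+ after AOM, Pla2g3+/+ with vehicle and Pla2g3-/- with vehicle, from high to low. Hoxd11 has 2 probes 2878 bases apart, on the genome as along the transcript, at chr2:74525014-74525073 and chr2:74522136-74522195 on mm9. The brighter read 0.358 and 0.277 with vehicle and 1.34 and 2.90 after AOM. Its AOM ratio was 3.73-fold in Pla2g3+/+ and 10.5-fold in Pla2g3-/-, where 0.176% of all genes tested had a higher ratio. The dimmer probe read 0.147, 0.109, 0.279 and 0.428, which is 1.90-fold and 3.92-fold. Both probes kept the order, but the dimmer did not pass 2-fold in Pla2g3+/+. Between genotypes after AOM the brighter probe was 2.17-fold higher in Pla2g3-/- and the dimmer 1.54-fold, and without scaling the brighter also fell short of 2-fold (log2 ratio 0.96).

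Hoxd12 was read by 1 probe at chr2:74515664-74515723 on mm9. Its signal was 0.225 in Pla2g3+/+ and 0.170 in Pla2g3-/- with vehicle, and 0.676 and 0.723 after AOM. The ratio of AOM to vehicle was 3.00-fold and 4.26-fold. The AOM pools differed by 0.10 on the log2 scale, under that SD of replicate spots, and the sign turned without scaling (-0.07) and relative to the simple epithelium genes described below (-0.58). With normexp background correction the AOM log2 ratio in Pla2g3-/- was 0.46, under 2-fold.

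Hoxd13, the most 5′ gene of its cluster, was read at chr2:74509248-74509307 on mm9. Its signal was 1.5 in Pla2g3+/+ and 1.01 in Pla2g3-/- with vehicle, and 3.90 and 6.88 after AOM. Both AOM pools lay above both vehicle pools, by 2.61-fold and 6.80-fold within each genotype. Over 12 settings, some of which repeat the reported value by construction as for Cdx2, these log2 ratios ran from 1.38 to 2.40 and from 2.64 to 3.61. Between genotypes after AOM the log2 ratio was 0.82, within 2-fold.

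**Figure D2:**
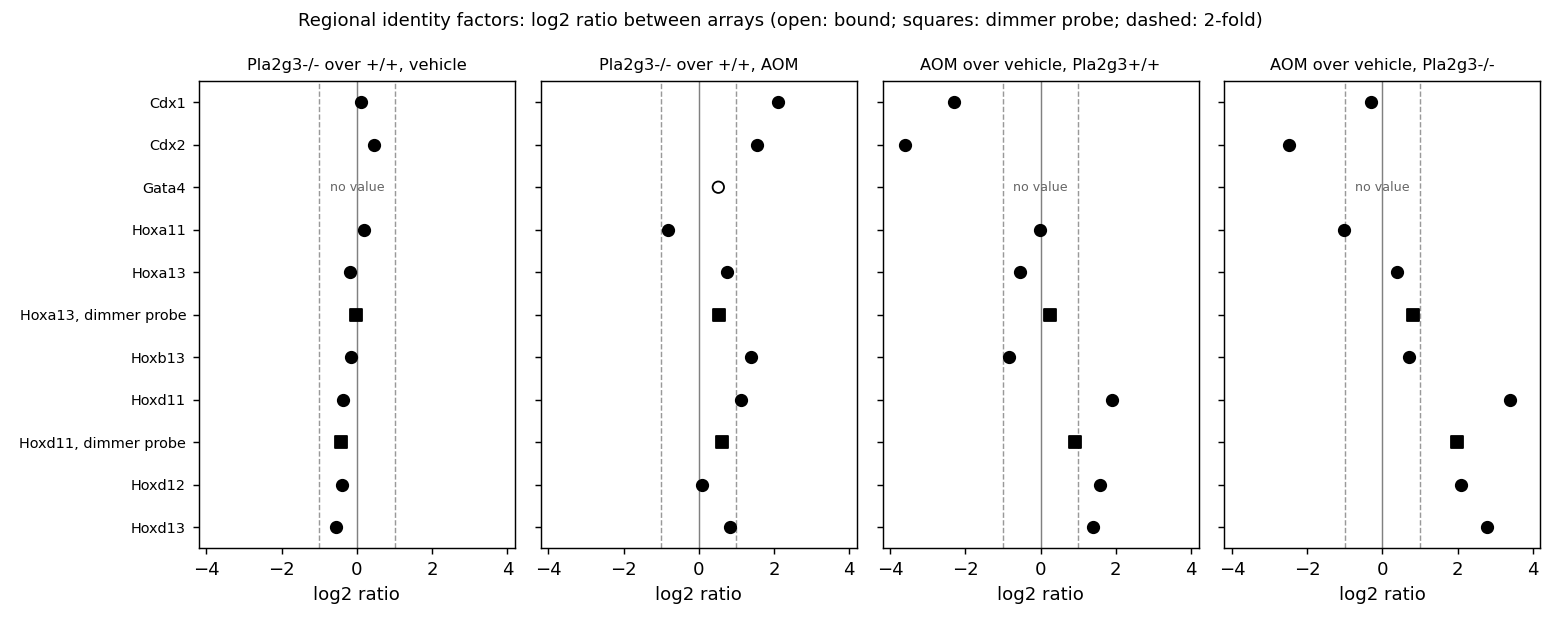
Log2 ratio between arrays for each probe of the 9 factors in the 4 comparisons, with dashed lines at 2-fold, an open circle for a bound and squares for the dimmer of 2 probes. All ratios between genotypes with vehicle lie inside the dashed lines, and after AOM those of Cdx1, Cdx2, Hoxb13 and the brighter Hoxd11 probe lie to the right of them, the last of these falling within them without scaling.

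Between genotypes after AOM, 4 of 9 factors were over 2-fold higher in Pla2g3-/- and none lower, against 28% of all genes past 2-fold (15.1% higher, 12.9% lower). These were Cdx1, Cdx2, Hoxb13 and Hoxd11. The median log2 ratio of the 9 was 0.82, beside 0.03 for all genes. Both AOM arrays also enter the ratios of AOM to vehicle, so these counts are not independent of those. The median log2 ratio of 8 simple epithelium genes, such as Epcam and Krt8, was 0.67, and with that subtracted, an alternative chosen after seeing the data, only Cdx1 stayed over 2-fold higher and Hoxa11 became over 2-fold lower (-1.5). In pooled tissue, fewer cells of a type and less RNA per cell cannot be told apart.

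The one fit with a residual, limma with treatment and genotype as additive terms over the 4 arrays, had 1 residual degree of freedom. For treatment it gave Cdx2 a log2 change of -3.04 ± 0.45 (SE), Hoxd11 2.65 ± 0.54, Hoxd12 1.84 ± 0.34 and Hoxd13 2.07 ± 0.51, each with an adjusted p of 0.368 in limma over 17877 genes. Each moved the same way in both genotypes. No gene passed an adjusted p of 0.05 in limma for either term, while 2410 genes for treatment and 215 for genotype had an unadjusted p under 0.05. For genotype every factor had an adjusted p of 0.994 in limma.

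The clusters behind the factors were followed through all 39 Hox genes on a list of paralogue groups. For AOM over vehicle, 15.1% of all genes were over 2-fold higher and 22.4% lower in Pla2g3+/+, and 9.65% and 15.1% in Pla2g3-/-. The HoxD cluster split along its length after AOM. Of the 5 posterior HoxD genes, 4 were over 2-fold higher in Pla2g3+/+ and all 5 in Pla2g3-/-. Hoxd10 had log2 ratios of 1.17 and 2.31, and Hoxd9 -0.26 and 1.37. Toward the other end, Hoxd4 was lower at -2.67 and -2.69, and Hoxd8 stayed within 2-fold at -0.97 and -0.98. Beyond Hoxd4, Hoxd3 had a bound of -1.09 in Pla2g3+/+ and no value in Pla2g3-/-, and Hoxd1 had no value in either.

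The HoxB cluster, which holds Hoxb13 at its far 5′ end, was lower after AOM in its anterior part. All 7 measured genes of groups 1 to 8 were over 2-fold lower after AOM in Pla2g3+/+ and 4 of 7 in Pla2g3-/-. Hoxb8 went from 0.573 to 0.0368 in Pla2g3+/+ and from 0.583 to 0.118 in Pla2g3-/-, log2 ratios of -3.96 and -2.30. Hoxb6 had -3.55 and -1.90 and Hoxb5 -3.51 and -1.19. Hoxb9, next in the cluster, stayed within 2-fold at -0.98 and -0.21.

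The HoxA cluster differed least. None of its 7 genes of groups 1 to 8 passed 2-fold with AOM in either genotype, and of its 4 posterior genes Hoxa9 was over 2-fold higher in Pla2g3+/+ (1.63) and Hoxa11 over 2-fold lower in Pla2g3-/-. HoxC genes of groups 9 to 13 were near background, with no value for any of the 5 in Pla2g3-/- and 2 bounds within 2-fold in Pla2g3+/+. With vehicle, none of the 11 posterior and 19 anterior Hox genes with a value passed 2-fold between genotypes. Of all genes 3.24% did, a share at which that says nothing particular of the Hox genes.

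**Figure D3:**
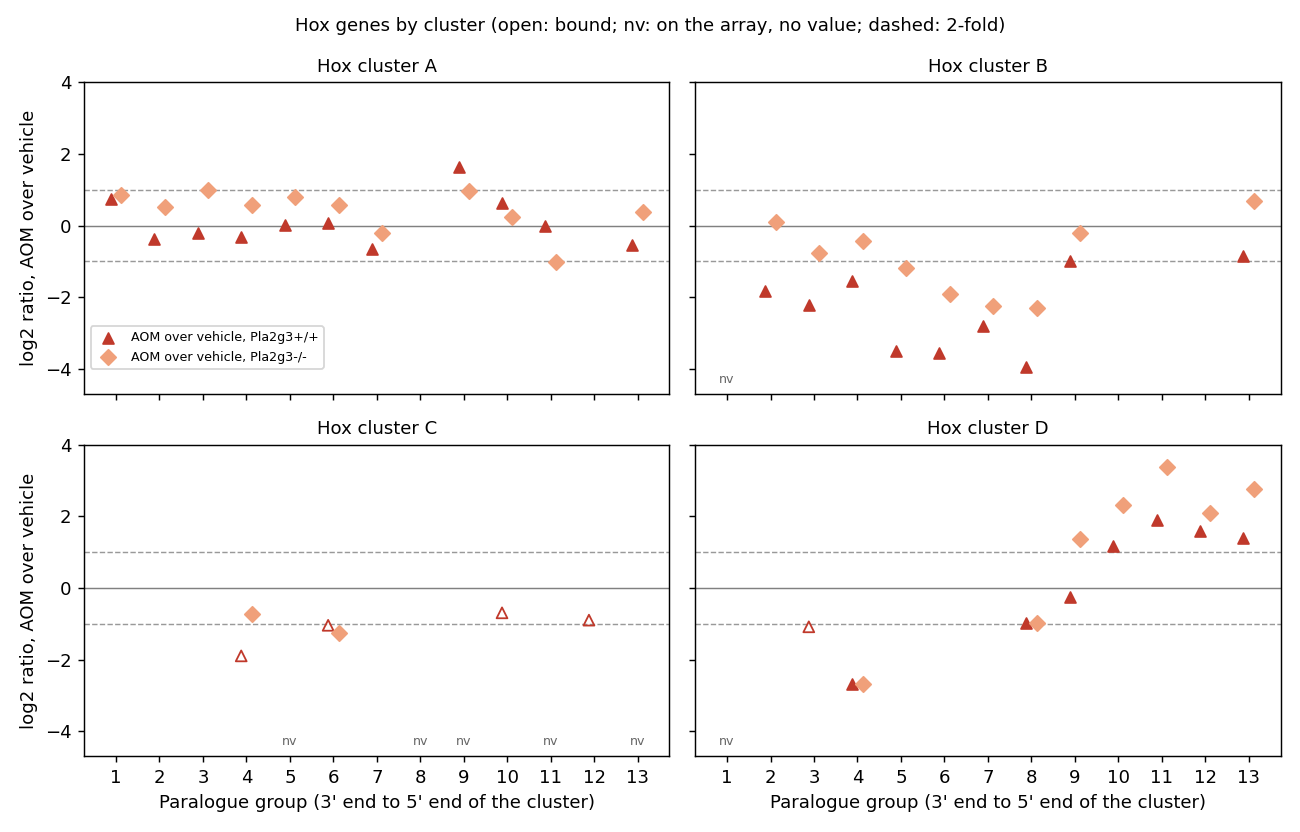
Log2 ratio of AOM to vehicle for each Hox gene against its paralogue group, 1 panel per cluster, with triangles for Pla2g3+/+, diamonds for Pla2g3-/-, open symbols for bounds and dashed lines at 2-fold. Cluster D, where Hoxd1 has no value and Hoxd3 only a bound in Pla2g3+/+, runs from -2.67 and -2.69 at Hoxd4 to 1.38 and 2.77 at Hoxd13. Cluster B is lowest at Hoxb8.

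Hox proteins bind DNA with cofactors of the TALE class. Of 8 measured Hox cofactors, 4 were over 2-fold lower and 1 higher after AOM in Pla2g3+/+, beside 37.5% of all genes past 2-fold. In Pla2g3-/- 1 was lower and 1 higher, and the 2 of 8 are near the 24.8% of all genes. Meis1 read 0.913, 1.20, 0.264 and 2.80 in the order given above, so it was lowest in Pla2g3+/+ and highest in Pla2g3-/- after AOM, 2 pools that differed by a log2 ratio of 3.41.

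Among genes known to depend on Cdx, 7 of 10 were over 2-fold lower with AOM in Pla2g3+/+ and none higher. Of all genes, 22.4% were lower and 15.1% higher. The median log2 ratio of the list was -2.03, beside -0.17 for all genes. In Pla2g3-/- the counts were 2 lower and 1 higher of 10, near the 24.8% of all genes past 2-fold, and the list median was 0.04. Mep1a, a brush border protease, read 22.6, 21.2, 0.987 and 16.5, and Muc2, the main mucin of goblet cells, 49.4, 44.3, 6.53 and 34.0. Only the pool of Pla2g3+/+ after AOM was low for these. Isx, an intestinal homeobox factor, differed from them, with 7.46, 8.23, 1.44 and 0.517, lowest in Pla2g3-/- after AOM (log2 ratios with AOM of -2.38 and -3.99). Of 14 intestinal epithelial transcription factors, 3 were over 2-fold lower and 1 higher in Pla2g3+/+ with AOM, and 1 lower and 3 higher in Pla2g3-/-, beside 37.5% and 24.8% of all genes past 2-fold. Klf4, which is made by differentiated surface cells, had -2.55 and 0.83, and Sox9, a factor of crypt base cells, 1.54 and 1.19.

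In the Gata family and its cofactors, 3 of 7 measured genes were over 2-fold higher after AOM in Pla2g3+/+ and 2 lower. In Pla2g3-/- 2 of 6 were higher and 1 lower. Of all genes, 37.5% and 24.8% were past 2-fold, shares at which so few genes give no result. Gata5, expressed in differentiated gut epithelium, was lower in both (-1.30 and -1.60), and Gata3, a factor of lymphocytes and squamous epithelium, was higher in Pla2g3+/+ (2.50) and not in Pla2g3-/- (-0.22). Of gut mesenchyme factors, 2 of 8 were higher and 2 lower in Pla2g3+/+ and 1 higher and 3 lower in Pla2g3-/-, beside the same shares. Isl1 was higher with AOM in both genotypes (3.38 and 2.48), and Hand2, a factor of enteric neurons and mesenchyme, was lower in Pla2g3+/+ (-3.03).

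Genes that mark segments of the gut were set beside the factors. With vehicle, none of 3 measured distal colon genes and none of 3 proximal colon and cecum genes was past 2-fold between genotypes, against 3.24% of all genes, a share at which so few genes give no result. After AOM the proximal genes were lower. Ang4, an antimicrobial protein of Paneth and goblet cells, read 131 and 107 with vehicle and 4.60 and 0.468 after AOM. Osr2 read 0.389 and 0.397 with vehicle, was not well above background in Pla2g3+/+ after AOM and read 0.0499 in Pla2g3-/-. Both were below either vehicle pool in either AOM pool. The remaining gene of the list, Fut2, had log2 ratios of -1.12 and -0.83.

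Distal genes did not follow 1 direction. Insl5, a hormone of distal enteroendocrine cells, read 11.4 and 9.61 with vehicle and 0.0962 and 1.48 after AOM. Atp12a, the colonic proton pump, read 2.69, 1.81, 0.385 and 4.53, and Scnn1b, a subunit of the epithelial sodium channel, 0.171, 0.155, 0.129 and 0.615. Pla2g3-/- after AOM was thus the highest pool for Atp12a and Scnn1b, as it was for Hoxb13, Hoxd11 and Hoxd13.

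Markers of the small intestine were measured in the vehicle pools too. Of 16, 9 were well above background in each vehicle pool and 10 in each AOM pool, with a summed signal of 142 and 165 with vehicle and 13.6 and 13.2 after AOM. Fabp2, an enterocyte fatty acid binding protein that the colon also expresses, made up most of the vehicle sums, at 133 and 156, and read 0.614 and 6.10 after AOM. Onecut2, a homeobox factor, made up most of the sum of Pla2g3+/+ after AOM, at 11.8, and was not well above background in the other pools, at least 674-fold lower in Pla2g3+/+ with vehicle. With AOM 7 of 11 were over 2-fold lower in Pla2g3+/+ and 1 higher, and 5 of 11 lower and 5 higher in Pla2g3-/-. The shares of all genes past 2-fold were 37.5% and 24.8%. Slc10a2, the ileal bile acid transporter, read 4.74, 5.03, 0.332 and 0.673. Between genotypes with vehicle, Sis was lower in Pla2g3-/- (log2 ratio -2.32) and Apoa1 at least 2.58-fold higher. Gip, Apoa4 and Fgf15 were not well above background on any array. Of 11 stomach genes, at most 5 were well above background on an array, and their summed signal lay between 0.303 and 1.08, highest in Pla2g3+/+ after AOM. In that pool Tff1, a peptide of gastric surface cells, read 0.567, at least 34.2-fold above its vehicle pool and 27.1-fold above Pla2g3-/- after AOM (0.021), and Gkn3 was 2.35-fold above vehicle. That pool was the highest for both and also had the lowest Cdx2, and a link between them was not tested. Gkn1 ran the other way there, from 0.108 with vehicle to a signal not well above background, a log2 ratio of -3.10 or lower. Of 6 stomach genes with a value in Pla2g3+/+, 2 were over 2-fold higher with AOM and 1 lower. Of all genes, 37.5% were past 2-fold. In Pla2g3-/- none of 4 measured stomach genes passed 2-fold with AOM.

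Tissue markers differed in the same comparisons, and their part in the results above was not tested. All 9 smooth muscle genes were over 2-fold lower with AOM in Pla2g3+/+ (median log2 ratio -4.49), with a summed signal of 517 in the vehicle pool and 31.2 in the AOM pool, against 543 and 498 in Pla2g3-/-. Colonocyte genes gave 6 of 7 lower in Pla2g3+/+ and 7 of 7 higher in Pla2g3-/- than in Pla2g3+/+ after AOM, with a summed signal of 579, 599, 28.3 and 289.8. Targets of Wnt in colon tumors ran the other way, with 8 of 8 over 2-fold higher with AOM in Pla2g3+/+ and none of 7 in Pla2g3-/-. Of all genes, 22.4% were lower and 15.1% higher with AOM in Pla2g3+/+, and 15.1% higher between genotypes after AOM. Simple epithelium genes differed less, with medians of -0.54 and 0.01 for AOM. With that median subtracted, the AOM log2 ratio of Cdx1 in Pla2g3+/+ was -1.77, those of Cdx2 were -3.06 and -2.50, and those of the 3 HoxD factors lay between 1.92 and 3.38.

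Further markers differed between pools. Exocrine pancreas genes were over 2-fold higher in Pla2g3-/- with vehicle than in Pla2g3+/+ with vehicle for 10 of 12, beside 1.92% of all genes. Amy2a5 among them read 34.7 against a signal not well above background. Krt5, a keratin of stratified squamous epithelium, read 15.3 in Pla2g3-/- after AOM against 0.0561, 0.0515 and 0.0266 in the other pools, and Hoxb13, Hoxd11 and Hoxd13 were highest in that pool too. Krt14, its partner keratin, read 0.112, 0.0686, 1.55 and 2.49, and Krt6a was well above background in the AOM pools alone (0.118 and 0.199). Both were thus higher in both AOM pools, as the HoxD factors were. Dsg3 of the same list ran the other way, from 0.137 and 0.0984 with vehicle to not well above background in both AOM pools. Krt13 and Trp63 stayed within 2-fold with AOM in both genotypes. Krt4 was well above background in Pla2g3+/+ after AOM alone. The part of the squamous markers in the HoxD ratios was not tested. Of 7 squamous genes with a value, 3 were over 2-fold higher with AOM and 2 lower in Pla2g3+/+, and 3 higher and 1 lower in Pla2g3-/-. The shares of all genes past 2-fold were 37.5% and 24.8%. Of all 9, 6 were well above background in each AOM pool and 5 in each vehicle pool, and their summed signal was 5.18, 4.8, 6.26 and 23.2. Sprr3 was not well above background on any array. The neutrophil genes S100a8 and S100a9 were higher in Pla2g3+/+ after AOM (log2 ratios of 7.62 and 7.32 with AOM). There 7 of 9 genes of enteric neurons and glia were over 2-fold lower, beside 22.4% of all genes. Of 8 proliferation genes, 4 were over 2-fold higher with AOM in Pla2g3+/+ and 1 lower in Pla2g3-/-. Of all genes, 15.1% were higher in Pla2g3+/+ and 15.1% lower in Pla2g3-/-.

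**Figure D4:**
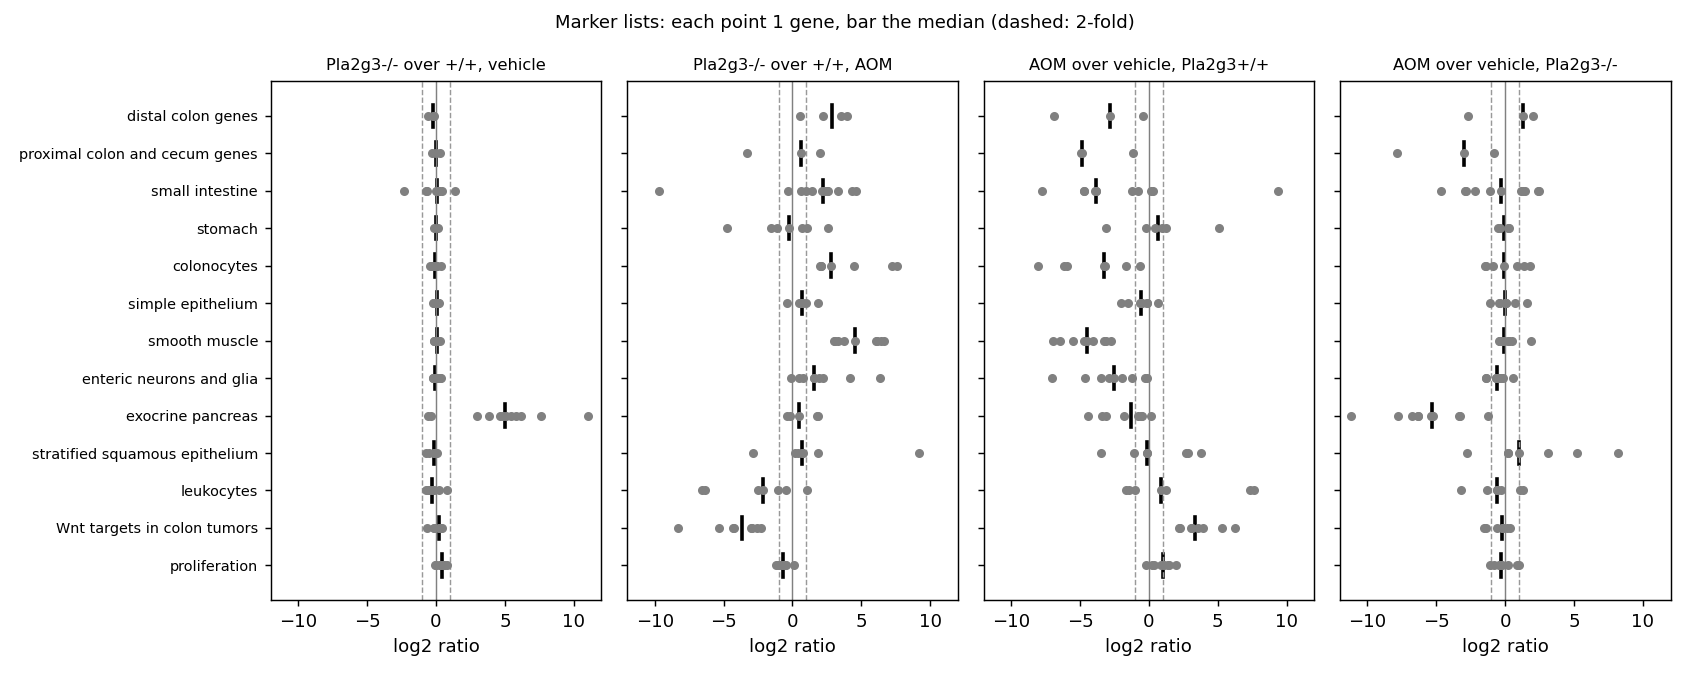
Log2 ratio of each gene of 13 marker lists in the 4 comparisons, bounds included, with a bar at the median of each list and dashed lines at 2-fold. Smooth muscle and colonocyte genes lie to the left in AOM over vehicle for Pla2g3+/+ and Wnt targets to the right, and exocrine pancreas genes stand to the right between genotypes with vehicle.

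The genes with the profile most like each factor over the 4 arrays were taken among 14787 genes well above background on all of them, by the distance between log2 levels centered on their mean. Among the nearest 3 to Cdx2 was Hoxb8, at a distance of 0.32, behind Spink4 and Cidec (0.26 each). Hoxd10 was the second nearest to Hoxd13 (0.38), after Hif1a (0.32) and before Gm5796 (0.39), and Hoxd13 was the third nearest to Hoxd11 (0.63), after Kcnk10 (0.60) and Pcdhb15 (0.61). No gene came within 0.5 of Hoxd11, and 11 did of Cdx2 and 14 of Hoxd13. Profiles with a small range had many neighbours, 2025 genes within 0.5 for Hoxa13 and 1176 for Hoxa11, whose nearest were Tmem47 (0.03) and Tmem9 (0.04). The nearest were Ovol1 for Cdx1 (0.08), Stk17b for Hoxb13 (0.03) and Gm3715 for Hoxd12 (0.17). With 4 arrays these are descriptions of shape.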

How the data were processed

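RNA of 4 colon pools, 1 per group, was hybridized to 4 one-color Agilent arrays. Per the file headers, the authors scanned them with Agilent Feature Extraction 11.5.1.1, and the intensity used is its processed signal, which is background-subtracted. The deposited value table holds ratios of that signal to the 75th percentile of each array, which differed from the ratios computed here by at most 0.0181%, and its background calls come from the deposited scanner files. No column of p-values by the authors was used.

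Control spots and outlier spots were left out, replicate spots were averaged as log2, and each array was scaled by the 75th percentile of its 43020 other spots. These log2 levels were computed here from the deposited intensity. A gene was read by its brightest probe, and 31367 of 39423 probes matched 22368 RefSeq genes. Where 1 array of a pair was not well above background, a bound was taken against that array. It used the larger of the probe's own signal there and the lowest well-above signal of that array. Ratios were counted past 2-fold, and a ratio of 1 array to another has no test of its own. The additive fit used limma 3.58.1 in R 4.3.3, with Benjamini-Hochberg adjustment over 17877 genes. The ratios and the fit were tested on simulated data. Python 3.11.15 was used for the rest. With 4 arrays the precision is limited, and p-values measure only the spread around the additive model.

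Alternatives were quantile normalization, no scaling, the array median, normexp (offset 50), other filters, probe rules and fold thresholds, and the deposited table. The genes named were the 9 factors, Pla2g3, each factor's 3 nearest genes, and, from each list, genes past 2-fold between genotypes with vehicle and the 3 largest rises and falls elsewhere. Onecut2, Gip, Apoa4, Fgf15, Pbsn, Msmb, Sprr3, Dsg3, Krt4, Hoxd1 and Hoxd3 fall outside that rule and were chosen after their values were seen. The factors and lists were chosen with earlier results of these data known. Promoter windows are those of RefSeq on GRCm38.p6, and probe positions are on mm9, as given with the array.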

Additional observations from a re-analysis of the deposited data

Results flagged for a closer look

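Some ratios had opposite signs in the groups under the same contrast. Each sign rests on 1 array per group, and the differences were not tested.

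For AOM over vehicle, Hoxa13 had a log2 ratio of -0.55 in Pla2g3+/+ and 0.38 in Pla2g3-/-, and Hoxb13 had -0.85 and 0.69. Both Hoxa13 probes gave a higher signal in Pla2g3-/- after AOM than in any other pool, but the dimmer probe was above 0 in both genotypes.

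For the pool labeled Pla2g3-/- over Pla2g3+/+, 6 factors differed in sign between vehicle and AOM. Hoxa11 had 0.18 with vehicle and -0.82 after AOM. The others ran the opposite way, with Hoxa13 at -0.17 and 0.75, Hoxb13 at -0.17 and 1.38, Hoxd11 at -0.37 and 1.12, Hoxd12 at -0.41 and 0.10 and Hoxd13 at -0.56 and 0.82.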

How the results depend on the processing

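Of 279 log2 ratios of the factors recomputed under the alternatives, 245 kept their direction and their side of 2-fold. Of the rest, 10 fell short of it, 7 came to pass it, 16 within 2-fold changed sign and 1 reversed. The reversed ratio was that of Hoxa11 for AOM over vehicle in Pla2g3+/+, from -0.0079 to 1.01 without scaling. The cause was not tested. Another 83 repeat the reported value by construction, from the deposited table or from probe rules on a factor with 1 probe. The 245 still include the filter settings, which repeat it by construction where both arrays were well above background. That count thus overstates how many ratios could have changed and did not.

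With 5 as the number of factors past 2-fold for AOM over vehicle in Pla2g3+/+, a 4-fold threshold left 2. Between genotypes after AOM the 4 factors became 7 at 1.5-fold, 1 at 4-fold and 2 relative to the simple epithelium list. In the latter Cdx2 had 0.88, Hoxb13 0.70 and Hoxd11 0.45.

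Of all genes, 531 were past 2-fold between genotypes with vehicle. That became 195 with normexp and quantile normalization, 3978 with normexp alone, 265 with only genes well above background on both arrays, 1382 with no filter, 1233 at 1.5-fold and 181 at 4-fold. After AOM the 4815 genes became 2812 with normexp and quantile normalization, 7922 at 1.5-fold and 1827 at 4-fold. For AOM over vehicle in Pla2g3+/+ the 6483 became 3465, 10328 and 2109 in the same order. In Pla2g3-/- the 4089 became 1761, 8125 and 738, and 7021 without scaling. The thresholds change the counts by construction.

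The share of these calls that were higher was 40.3% in Pla2g3+/+ and 39.0% in Pla2g3-/- for AOM over vehicle. It became 86.3% and 91.1% without scaling, 51.4% and 51.2% with normexp and quantile normalization, and 14.9% in Pla2g3-/- with normexp. Between genotypes with vehicle it was 59.3%, 99.0% with normexp and 48.6% with no filter.

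For treatment, limma called 0 genes, and 11, all lower, with normexp background correction. No factor was called in any limma setting, with adjusted p-values from 0.165 up for treatment and from 0.851 up for genotype. Signs between genotypes with vehicle turned under normexp for Cdx1 (-0.47), Cdx2 (-0.09), Hoxa13 (0.08), Hoxd11 (0.31) and Hoxd12 (0.83). No paired analysis was possible because each group has 1 array and so no replicates to pair, while the additive limma fit itself compares treatment within genotype.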
